A study of Mus musculus with 6 samples.

Results

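The amino acid and taurine transporters examined here are the genes whose symbol in the array table starts with SLC1A, SLC3A, SLC6A, SLC7A, SLC36A, SLC38A or SLC43A. They came to 51 of the 31490 symbols and 84 of the 45281 probes. 1 of the 51, Slc7a6os, carries the prefix but is not a carrier; without it there were 50 symbols and 83 probes. A detection p-value under 0.05, against the negative-control beads of the array, was reached on at least 3 of the 6 arrays by 35 probes of 27 genes, and only these were tested.

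RNA was compared between Ad-Cre-treated and Ad-eGFP-treated Sertoli cells, with 3 arrays per treatment. The cells of both groups came from testes of 3 week-old Ctnnb1(tm1Mmt/tm1Mmt) mice of the C57BL/6J strain, and both groups carried the floxed allele and received an adenovirus at an MOI of about 50 for 24 h without serum. Cre turns the floxed allele into a dominant-stable form of CTNNB1, which resists degradation, whereas the control virus leaves the allele intact and makes eGFP. Seminiferous tubules were pooled before the cells were dispersed, and it is not said in the sources used here if each RNA sample had a culture of its own. The p-values therefore measure only the spread between these samples, which may be technical. Cells lacking the floxed allele but given Ad-Cre were not analysed here, so effects of the allele, of Cre and of the virus cannot be told apart. The eGFP probe gave normalized log2 intensities of 13.18, 13.14 and 12.72 on the Ad-Cre arrays and 14.99, 15.01 and 14.79 on the Ad-eGFP arrays. It was lower on every Ad-Cre array, at -1.91 as a log2 fold change (SE, the standard error, 0.14, adjusted p = 0.000368 by limma). Yet it was detected on all 6 arrays, and its Ad-Cre signal lay far above the lowest detected signals of those arrays (5.42, 5.39 and 5.45). The source of this signal in Ad-Cre-treated cells was not tested. The Ctnnb1 probes differed in direction (log2 fold changes of 0.22, 0.30 and -0.39), and whether they lie within the deleted exon was not tested. The last value ranged from -0.44 to -0.13 under other settings. The calls at 0.30 and -0.39 (adjusted p = 0.0254 and 0.0187 by limma) were both lost when any 1 Ad-eGFP array was left out. The call at 0.30 was also lost with median scaling, with the replicate number as a block and without Ad-Cre replicate 2.

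Amino acids cross membranes through solute carriers. Carriers of the SLC1, SLC6 and SLC38 families draw on the sodium gradient to concentrate their substrates, SLC36 carriers use protons, and most SLC7 carriers are exchangers that need a heavy chain from the SLC3 family to reach the cell surface. Sertoli cells form the blood-testis barrier and pass nutrients to germ cells behind it. They also make and take up taurine, an amino sulfonic acid that serves as an osmolyte and is abundant in the testis.

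Among the tested carriers, 10 of 35 probes had an adjusted p under 0.05 by limma, with 9 higher and 1 lower in Ad-Cre-treated cells. Among the 9, Slc6a6 probe 780521 was tested only because it was detected with Ad-Cre. Of all 20855 tested probes, 22.9% passed in either direction, with 10.7% higher and 12.2% lower. The carriers were chosen with earlier results of these data known, so this is no independent comparison. Taking the brightest tested probe of each gene, 5 of 27 genes were higher (Slc3a2, Slc6a6, Slc6a9, Slc7a5 and Slc7a6) and 1 was lower (Slc38a5), against 10.4% higher and 12.8% lower of 15133 genes. A further 3 genes, Slc38a2, Slc7a7 and Slc7a11, passed through a probe other than the brightest. The median log2 fold change of the 27 genes was 0.12, with 19 above 0 and 8 below, or 18 and 8 without Slc7a6os. For all tested genes it was -0.01, with 7422 above 0 and 7711 below. The median of the 27 genes was 0.06 without background correction, 0.16 with median scaling and 0.04 with a larger offset. No overlap between the treatments was seen for 15 of the 35 probes, 13 above and 2 below the Ad-eGFP arrays, against 42.0% of all tested probes. A change of 1.5-fold or more together with an unadjusted p under 0.05 was seen for 2 carrier probes (Slc6a6 probe 780521 and Slc38a5), against 8.22% of all tested probes. The former, also counted among the 13 above, was detected on no Ad-eGFP array and was tested only because of the Ad-Cre arrays. An exact two-sided permutation test of 3 against 3 arrays cannot give a p under 0.1, and that value was reached by each of the 10 called probes.

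The number of called carrier probes fell to 6, of which 5 were higher, without Ad-eGFP replicate 2, and the number of called genes fell to 3 without Ad-eGFP replicate 1 and to 3 without Ad-eGFP replicate 2. Over all 20855 probes, the 4774 calls became 3003 without Ad-Cre replicate 2 and 2926, 2831 and 2480 without Ad-eGFP replicates 1, 2 and 3.

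**Figure D1:**
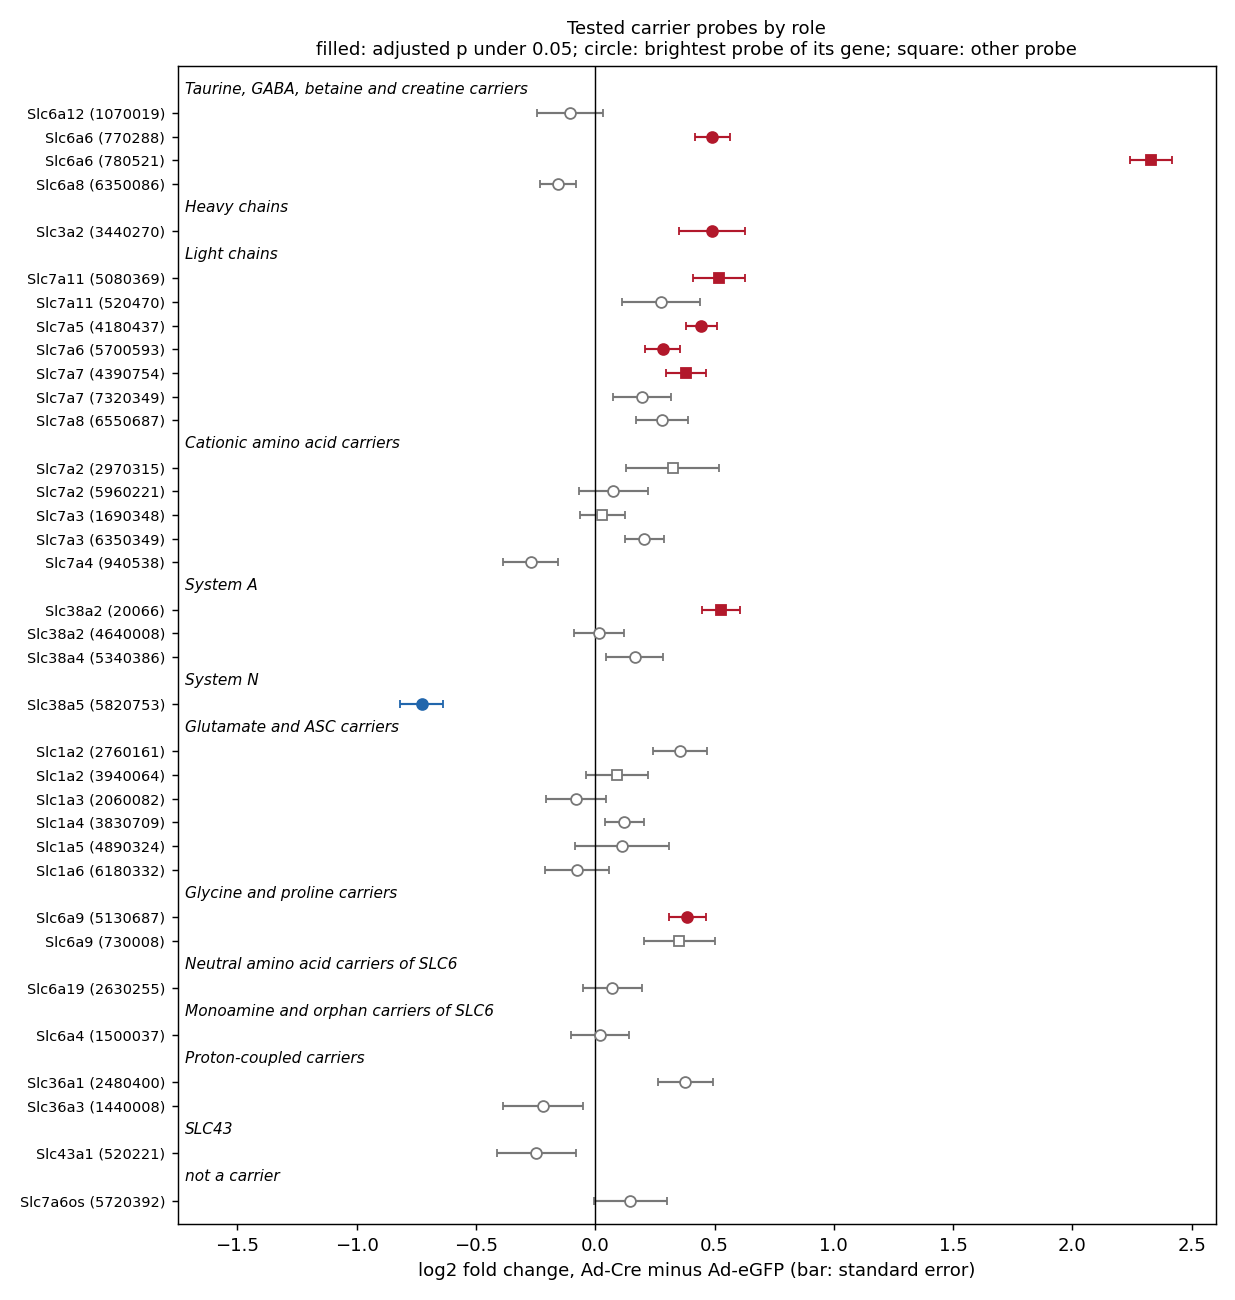
Log2 fold change (Ad-Cre minus Ad-eGFP, x axis) of the 35 tested probes, grouped by role, with standard errors as bars. Filled symbols mark an adjusted p under 0.05, circles the brightest probe of a gene and squares its other probes, and of the 10 filled symbols only Slc38a5 lies to the left of 0.

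Slc6a6 encodes TAUT, the sodium- and chloride-dependent taurine transporter of the plasma membrane. Its brighter probe, 770288, gave normalized log2 intensities of 12.72, 12.79 and 12.72 on the Ad-Cre arrays and 12.18, 12.33 and 12.26 on the Ad-eGFP arrays. All Ad-Cre arrays were higher than all Ad-eGFP arrays. The log2 fold change was 0.49 (1.41-fold; SE 0.07, adjusted p = 0.0049 by limma).

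The other Slc6a6 probe, 780521, gave 7.56, 7.52 and 7.41 on the Ad-Cre arrays and 5.30, 5.14 and 5.07 on the Ad-eGFP arrays. It was detected on each Ad-Cre array and on none of the Ad-eGFP arrays, so it was tested only because of the Ad-Cre group. Of the 35 tested probes it was the only one not detected at all in a treatment. Because the Ad-eGFP signal was not above background, its size is given as a bound, which holds only for the offset of 16. On that scale the difference was at least 4.18-fold, with each Ad-eGFP array set to the higher of its own signal and the lowest log2 signal among its detected probes (5.42, 5.47 and 5.41). The fitted log2 fold change, which rests on undetected Ad-eGFP signal, went from 2.33 to 1.09 without background correction and to 0.61 with a larger offset, both below that bound. For the brighter probe the adjusted p was at most 0.0256 over the alternatives, and averaging it with the probe undetected with Ad-eGFP moved the log2 fold change from 0.49 to 1.41. Which transcripts each probe detects was not tested.

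Slc6a8, the creatine transporter and a close relative of the taurine transporter, had values of 11.49, 11.55 and 11.45 with Ad-Cre and 11.57, 11.66 and 11.73 with Ad-eGFP. The treatments were separated by a small gap, with the Ad-Cre arrays below. The log2 fold change of -0.15 (SE 0.08) did not pass (adjusted p = 0.188). Slc6a12, the betaine and GABA transporter, was detected on 2 Ad-Cre arrays and 1 Ad-eGFP array, and its values overlapped (log2 fold change -0.10, adjusted p = 0.624). Slc6a13, a close relative of Slc6a12, was detected on no array.

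Slc3a2 encodes the heavy chain 4F2hc (CD98), the partner that brings several light chains to the plasma membrane. Its probe gave 8.08, 8.45 and 8.58 on the Ad-Cre arrays and 7.99, 7.77 and 7.89 on the Ad-eGFP arrays. The Ad-Cre arrays were all higher, although Ad-Cre replicate 1 lay closer to the Ad-eGFP arrays than to the other Ad-Cre arrays. The log2 fold change was 0.49 (1.40-fold; SE 0.14, adjusted p = 0.0419), and with a larger offset it was 0.27. This call was lost without the filter (adjusted p = 0.072), by an ordinary t-test (0.131), with the replicate number as a block (0.0695), without Ad-Cre replicate 2 (0.121) or 3 (0.0799) or Ad-eGFP replicate 1 (0.0717), 2 (0.126) or 3 (0.11), within a range from 0.0121 to 0.131. The other heavy chain gene, Slc3a1, whose protein rBAT serves cystine uptake in kidney and gut, was detected on no array.

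Slc7a5 encodes LAT1, the light chain that carries large neutral amino acids such as leucine in exchange for glutamine. It gave 14.10, 14.12 and 14.12 on the Ad-Cre arrays and 13.69, 13.65 and 13.68 on the Ad-eGFP arrays. The arrays of each treatment lay close together, and the Ad-Cre arrays were all higher, by a log2 fold change of 0.44 (1.36-fold; SE 0.07, adjusted p = 0.00439), with an adjusted p between 7.30e-05 and 0.0247 over all alternatives.

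Slc7a6 (y+LAT2) and Slc7a7 (y+LAT1) encode light chains that export cationic amino acids in exchange for neutral amino acids and sodium. Slc7a6 gave 9.64, 9.70 and 9.78 with Ad-Cre and 9.41, 9.42 and 9.45 with Ad-eGFP, without overlap and with a log2 fold change of 0.28 (SE 0.07, adjusted p = 0.031). The call of Slc7a6 was lost with median scaling (0.0531), with the replicate block (0.0572), without Ad-Cre replicate 2 (adjusted p = 0.0807) or Ad-eGFP replicate 1 (0.101), 2 (0.0985) or 3 (0.0898), within a range from 0.00554 to 0.101.

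Slc7a7 was measured by a pair of tested probes. Probe 4390754 gave 8.12, 8.15 and 8.05 with Ad-Cre and 7.81, 7.61 and 7.76 with Ad-eGFP, and the brighter probe 7320349 gave 8.26, 8.32 and 8.03 with Ad-Cre and 7.82, 8.18 and 8.02 with Ad-eGFP. The treatments were apart for the former and overlapped for the latter. The log2 fold changes were 0.38 (SE 0.08, adjusted p = 0.017) and 0.20 (SE 0.12, adjusted p = 0.287), and with the mean of both probes the gene passed with 0.29 (adjusted p = 0.0346, the lowest of its alternatives, which reached 0.616). The call of probe 4390754 was lost without Ad-Cre replicate 2 (adjusted p = 0.0596) or Ad-eGFP replicate 2 (0.0624) or 3 (0.0556), within a range from 0.00628, and its log2 fold change was 0.19 with a larger offset.

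Slc7a11 encodes xCT, which imports cystine in exchange for glutamate and so feeds glutathione synthesis. Probe 5080369 gave 7.0, 6.94 and 7.31 with Ad-Cre and 6.57, 6.61 and 6.52 with Ad-eGFP, and the brighter probe 520470 gave 8.82, 8.92 and 9.35 with Ad-Cre and 8.52, 8.90 and 8.84 with Ad-eGFP. The former showed no overlap, whereas for the latter Ad-Cre replicate 1 lay below Ad-eGFP replicates 2 and 3. The log2 fold changes were 0.52 (SE 0.11, adjusted p = 0.0151) and 0.28 (SE 0.16, adjusted p = 0.265). For probe 5080369 the call was lost by an ordinary t-test (0.062) or without Ad-eGFP replicate 3 (adjusted p = 0.06), within a range from 0.00645 to 0.062. The log2 fold change of probe 5080369 was 0.28 without background correction and 0.17 with a larger offset. On both of these probes Ad-Cre replicate 3 was the highest array. Another probe of Slc7a11, 3800458, was detected on 2 Ad-Cre arrays and on no Ad-eGFP array and was not tested.

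Slc7a8 (LAT2), the light chain for small and large neutral amino acids, gave 7.07, 7.01 and 7.07 with Ad-Cre and 6.54, 6.92 and 6.85 with Ad-eGFP. The Ad-Cre arrays were all higher, and the log2 fold change was 0.28 (SE 0.11), but the adjusted p was 0.111. In all, 5 of the 9 light chain genes were tested, and each had a positive log2 fold change at its brightest probe, from 0.20 to 0.44. Over the alternatives the lowest values at these probes were 0.10 for Slc7a7, 0.12 for Slc7a11 and 0.09 for Slc7a8. The remaining light chain genes, Slc7a9, Slc7a10, Slc7a12 and Slc7a13, were detected on no array by probes filed under these symbols. A Slc7a13 probe under an older symbol, 3390392, was detected on 3 arrays, with a log2 fold change of 0.01 (adjusted p = 0.971).

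Slc38a2 encodes SNAT2, the system A carrier that takes up small neutral amino acids with sodium and is known to be raised when amino acids are scarce. Probe 20066 gave 10.90, 11 and 11.09 with Ad-Cre and 10.45, 10.46 and 10.50 with Ad-eGFP. The brighter probe 4640008 gave 11.88, 11.83 and 11.58 with Ad-Cre and 11.83, 11.63 and 11.78 with Ad-eGFP. The treatments were apart for the former and mixed for the latter. The log2 fold change was 0.53 for probe 20066 (1.44-fold; SE 0.08, adjusted p = 0.00447, between 0.000217 and 0.0224 over its alternatives) and 0.02 for probe 4640008 (SE 0.11, adjusted p = 0.932). With the mean of both probes the gene passed, with a log2 fold change of 0.27 (adjusted p = 0.0272, the lowest over the alternatives of the brighter probe, whose highest was 0.965). The call for Slc38a2 thus depends on the probe. Of the other system A genes, Slc38a4 gave overlapping values (log2 fold change 0.17, adjusted p = 0.36) and Slc38a1 was detected on no array.

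Slc38a5 encodes SNAT5, a system N carrier that exchanges sodium and glutamine, asparagine, histidine or serine for protons. It gave 9.25, 9.19 and 9.00 on the Ad-Cre arrays and 9.90, 9.91 and 9.81 on the Ad-eGFP arrays. Every Ad-Cre array was lower than every Ad-eGFP array, by a mean log2 fold change of -0.73 (1.66-fold lower; SE 0.09, adjusted p = 0.00213), with an adjusted p from 5.49e-05 to 0.0178 over all alternatives. Among the carriers that the symbol rule selects, it was the only one called lower in Ad-Cre-treated cells. Apart from the dim Slc6a6 probe, it was also the only tested one of these with a change of at least 1.5-fold. The other system N gene, Slc38a3, was detected on no array. In pooled RNA, fewer cells of a type and less RNA per cell cannot be told apart.

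Slc6a9 encodes GLYT1, a sodium- and chloride-dependent glycine transporter. Its brighter probe, 5130687, gave 10.92, 11.02 and 11.03 with Ad-Cre and 10.55, 10.55 and 10.70 with Ad-eGFP. All Ad-Cre arrays were higher, and the log2 fold change was 0.39 (1.31-fold; SE 0.08, adjusted p = 0.014). The dim probe 730008, detected on all Ad-Cre arrays and on 2 Ad-eGFP arrays, gave overlapping values with a log2 fold change of 0.35 (SE 0.15, adjusted p = 0.134). For probe 5130687 the call was lost without Ad-Cre replicate 2 (adjusted p = 0.0506) or Ad-eGFP replicate 1 (0.0567) or 2 (0.0577), within a range from 0.0014 to 0.0577. The neuronal glycine transporter gene Slc6a5 and the proline transporter genes Slc6a7 and SLC6A20 were detected on no array.

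**Figure D2:**
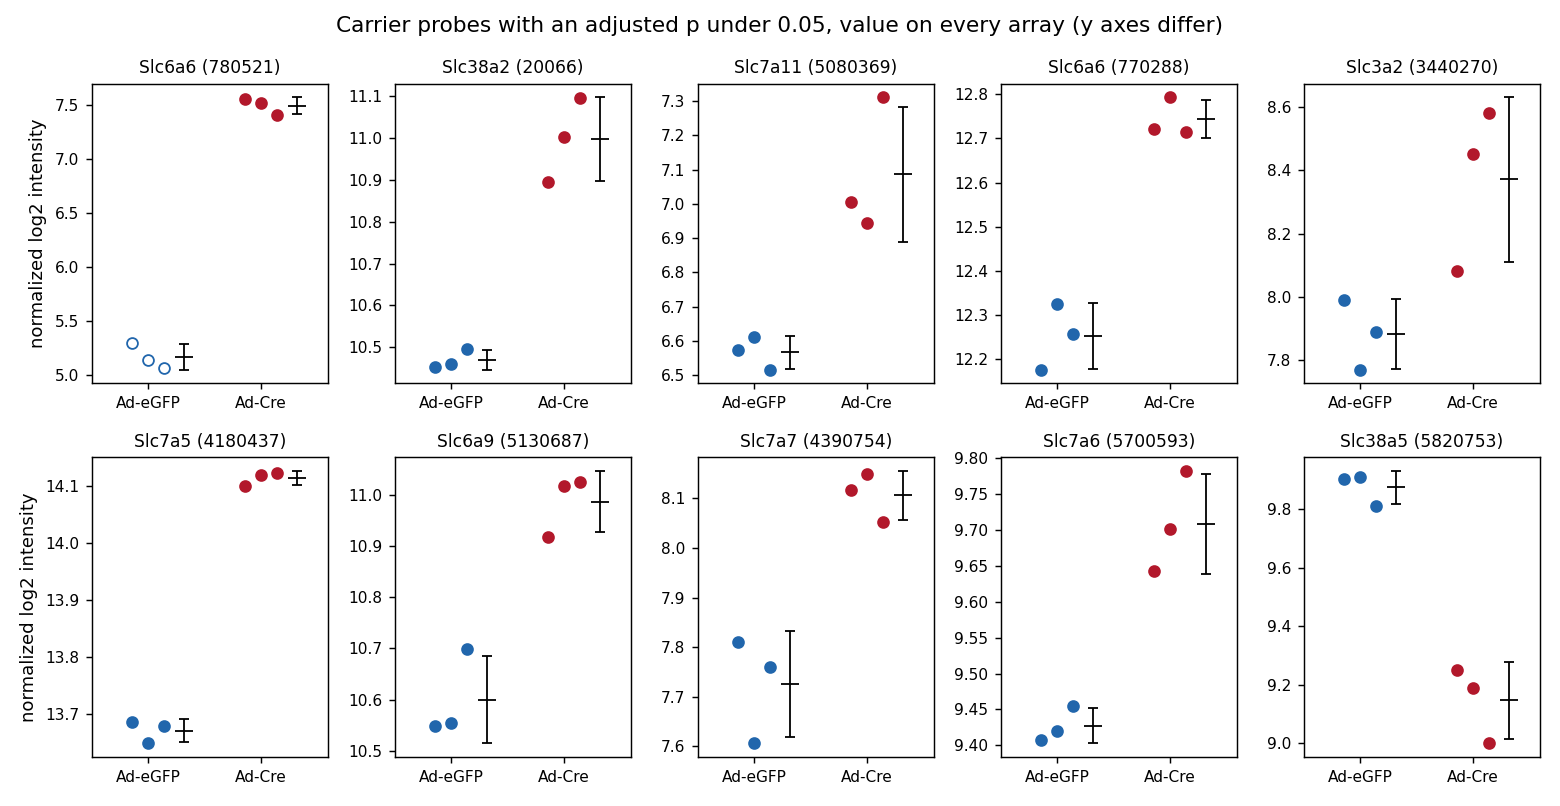
Normalized log2 intensity (y axis, a separate scale for each panel) on every array for the 10 carrier probes with an adjusted p under 0.05, with probe numbers in parentheses. Points are arrays, black bars show the mean and SD of 3 arrays, and open circles mark a treatment in which no array detected the probe, and the treatments are apart in every panel, with lower Ad-Cre values only for Slc38a5.

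None of the 5 tested probes of the cationic amino acid carriers passed. Slc7a3 (CAT3) gave 11.44, 11.48 and 11.57 with Ad-Cre and 11.19, 11.30 and 11.38 with Ad-eGFP at its brighter probe. These values did not overlap, and the log2 fold change was 0.21 (SE 0.08, adjusted p = 0.117), which passed only with a larger offset (adjusted p = 0.0329, within a range up to 0.313). Slc7a4, a relative of the cationic carriers, gave 9.92, 9.69 and 9.62 with Ad-Cre and 10.18, 9.99 and 9.87 with Ad-eGFP, with overlap and a log2 fold change of -0.27 (SE 0.11, adjusted p = 0.135). Slc7a2 (CAT2), which carries arginine and lysine, had log2 fold changes of 0.08 and 0.33 at its tested probes (adjusted p = 0.745 and 0.274). Its dimmer probe, detected on 3 Ad-Cre arrays and 1 Ad-eGFP array, passed only without Ad-eGFP replicate 3 (adjusted p = 0.0334, within a range up to 0.565). For Slc7a1 (CAT1), the widespread arginine transporter, no probe was detected on more than 2 arrays, both with Ad-Cre.

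None of the 6 tested probes of the SLC1 family passed either. Slc1a4 (ASCT1), an exchanger of alanine, serine and cysteine, gave 10.50, 10.58 and 10.35 with Ad-Cre and 10.36, 10.38 and 10.32 with Ad-eGFP. The values overlapped, and the log2 fold change was 0.12 (SE 0.08, adjusted p = 0.333). The related glutamine exchanger Slc1a5 (ASCT2) was near the detection limit, with 2 Ad-Cre arrays and 1 Ad-eGFP array detected by its tested probe (log2 fold change 0.11, adjusted p = 0.724). Without Ad-Cre replicate 3, its lowest array, the log2 fold change of Slc1a5 was 0.35 (adjusted p = 0.0384, the lowest in a range up to 0.935).

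Of the glutamate carriers, which clear extracellular glutamate with sodium, Slc1a2 (GLT-1) gave 6.34, 6.21 and 6.61 with Ad-Cre and 5.95, 6.06 and 6.09 with Ad-eGFP at its brighter probe. The Ad-Cre arrays were all higher, with a log2 fold change of 0.36 (SE 0.11, adjusted p = 0.0622). This value passed with median scaling (0.0433), with a stricter detection filter (0.0404) and without Ad-Cre replicate 2 (adjusted p = 0.0495), within a range from 0.0404 to 0.173. The other tested probe of Slc1a2 gave overlapping values with a log2 fold change of 0.09. Slc1a3 (GLAST) and Slc1a6 (EAAT4) had log2 fold changes of -0.08 and -0.08, with overlap, and Slc1a1 and Slc1a7 were detected on no array.

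Slc36a1 (PAT1) exports small amino acids from lysosomes together with protons. It gave 6.88, 7.16 and 7.32 with Ad-Cre and 6.73, 6.74 and 6.77 with Ad-eGFP. The Ad-Cre arrays were all higher and more spread than the Ad-eGFP arrays, and the log2 fold change of 0.38 (SE 0.12) had an adjusted p of 0.0543. It passed without background correction (0.0475), with median scaling (0.0445), with the stricter filter (0.0346), with array weights (0.0182) and without Ad-Cre replicate 1 (adjusted p = 0.0162), within a range from 0.0162 to 0.139. Its log2 fold change was 0.21 without background correction, and the lowest over the alternatives was 0.13. Slc36a3 had a log2 fold change of -0.22 with overlap (adjusted p = 0.394), and Slc36a2 was detected on no array.

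The other tested carriers gave overlapping values and did not pass. Slc43a1 (LAT3), a facilitated carrier of large neutral amino acids, had a log2 fold change of -0.25 (SE 0.17), with Ad-Cre replicate 3 the lowest of its arrays at 5.58. Without that array its adjusted p was 0.681, and over the alternatives its log2 fold change lay between -0.42 and -0.05. Slc6a19, the neutral amino acid transporter of kidney and gut epithelium, had 0.07, and Slc6a4, the serotonin transporter, had 0.02. Slc7a6os had 0.15 (adjusted p = 0.533), but its probe under an older symbol, 6450465, had 0.70 (adjusted p = 0.00264; 0.41 without background correction and 0.26 with a larger offset), so its probes differ. Under other settings, the sign of a log2 fold change that did not pass turned in 17 of the values recomputed for the carriers.

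In all, 24 of the 51 genes had no tested probe, and 20 of these were detected on no array by the probes that the symbol rule selects. The remaining 4 were Slc6a2, Slc6a18, Slc7a1 and Slc43a3, each detected on 2 arrays by 1 probe. Among the genes detected on no array were also Slc6a3, the dopamine transporter, Slc6a14, Slc6a15 and Slc6a17, carriers of neutral amino acids, and Slc43a2 (LAT4). By probes, 30 of 84 were detected on all 6 arrays, 9 on 1 or 2 arrays and 40 on none. The number of carrier probes detected per array was 40, 37 and 36 with Ad-Cre and 34, 32 and 35 with Ad-eGFP. Each Ad-Cre array thus detected more carrier probes than any Ad-eGFP array, whereas over all probes the detected numbers overlapped, at 20672, 20901 and 20461 with Ad-Cre and 20687, 20288 and 20746 with Ad-eGFP. This difference in number was not tested.

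For 8 genes, more than 1 probe was tested, and a call at 1 probe was accompanied by a miss at the other for Slc6a9, Slc7a7, Slc7a11 and Slc38a2. No tested probe passed for Slc1a2, Slc7a2 and Slc7a3, and for Slc6a6 the dimmer probe had been tested only because of the Ad-Cre arrays.

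Promoters of RefSeq (GRCm38.p6; 300 bases around the start) matched 33 of the 51 symbols, with 53 promoters, and 7 of the 9 genes with a called probe, with 14 promoters. They are shown for a heavy chain gene and a pair of light chain genes with a probe that was higher, and for Slc38a5, which fell. The motifs searched, on both strands, were the C/EBP-ATF response element (TGATGNAA), bound by ATF4 and its partners when amino acids are scarce, the antioxidant response element (TGACNNNGC), bound by NRF2, and a core site of TCF/LEF (CTTTGAA or CTTTGAT), the partners of CTNNB1. Matches were held by 3.97%, 12.4% and 8.65% of all 32851 promoters. Of the 53 promoters of the carriers, 4, 9 and 5 held the respective motifs, and of the 14 promoters of called genes 3, 5 and 2. The 3 with the C/EBP-ATF letters belong to Slc7a11 and to a pair of overlapping Slc7a7 promoters that share a site, while the other 3 of the 5 Slc7a7 promoters hold no match. The 2 with the TCF/LEF letters belong to Slc3a2 and Slc7a7. The 5 with the antioxidant letters belong to Slc38a2, to Slc6a9 and to a pair of overlapping Slc7a6 promoters that share a site, so that shared sites were counted for each promoter. A match is a description of letters, and binding was not tested. In the following promoters, printed 5′ to 3′ on the strand of the gene, capitals mark matches, none of which overlap. The Slc7a11 promoter (chr3:50443564-50443863, minus strand) holds 2 C/EBP-ATF matches in opposite orientation, a Slc7a7 promoter (chr14:54417895-54418194, minus strand), the richest in matches, holds 2 and a TCF/LEF match, the Slc3a2 promoter (chr19:8713848-8714147, minus strand) holds a TCF/LEF match, and the Slc38a5 promoter (chrX:8271131-8271430, plus strand) holds none.
Slc7a11: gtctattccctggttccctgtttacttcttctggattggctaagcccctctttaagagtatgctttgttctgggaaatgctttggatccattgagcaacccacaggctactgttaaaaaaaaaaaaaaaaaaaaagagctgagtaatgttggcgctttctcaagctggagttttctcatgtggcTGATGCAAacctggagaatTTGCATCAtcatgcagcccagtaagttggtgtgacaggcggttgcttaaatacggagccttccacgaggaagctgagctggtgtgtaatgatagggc
Slc7a7: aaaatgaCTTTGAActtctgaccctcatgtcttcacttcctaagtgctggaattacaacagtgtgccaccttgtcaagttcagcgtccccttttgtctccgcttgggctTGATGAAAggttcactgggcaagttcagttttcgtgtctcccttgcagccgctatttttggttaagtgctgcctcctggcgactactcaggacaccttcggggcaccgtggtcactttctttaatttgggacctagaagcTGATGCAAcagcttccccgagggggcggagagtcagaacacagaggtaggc
Slc3a2: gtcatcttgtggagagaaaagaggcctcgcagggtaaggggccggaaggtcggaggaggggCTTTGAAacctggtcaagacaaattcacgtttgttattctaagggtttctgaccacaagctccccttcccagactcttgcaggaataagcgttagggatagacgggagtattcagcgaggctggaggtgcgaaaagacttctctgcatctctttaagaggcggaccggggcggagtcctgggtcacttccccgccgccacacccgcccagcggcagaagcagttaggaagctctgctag
Slc38a5: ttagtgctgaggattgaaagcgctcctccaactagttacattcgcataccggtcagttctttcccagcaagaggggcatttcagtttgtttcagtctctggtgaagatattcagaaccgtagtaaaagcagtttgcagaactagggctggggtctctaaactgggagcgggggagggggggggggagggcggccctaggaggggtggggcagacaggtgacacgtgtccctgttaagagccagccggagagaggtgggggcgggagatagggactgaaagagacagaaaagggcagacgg

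Genes of related pathways were read from the same fit, by the brightest tested probe of each gene. The counts below stand beside 10.4% higher and 12.8% lower of all 15133 genes. The lists were chosen with earlier results of these data known, so this is no independent comparison. A set of 42 called probes from these lists, the markers, the label checks and the other symbols was followed over the alternatives. It included Amh, Fshr and Rhox8 and left out the dimmer probes of genes in the lists and among the markers. In this set the change was smaller by more than 1.5 times in 13 without background correction and in 20 with a larger offset. With the larger offset 41 of them remained called. Among enzymes of taurine synthesis and its cysteine supply, 1 of 5 tested genes rose and none fell, with a median log2 fold change of -0.31. Cth, which makes cysteine from cystathionine, had 0.83 (SE 0.15, adjusted p = 0.00962; 0.0615 by an ordinary t-test, within a range from 0.00263). Its value was 0.37 without background correction and 0.21 with a larger offset. Csad, the enzyme that makes hypotaurine, had -0.31 (adjusted p = 0.0626), while its dimmer probe had -0.53 (adjusted p = 0.0129; 0.0551 by an ordinary t-test and 0.0501 without Ad-eGFP replicate 3, within a range from 0.00308) and the mean of its probes passed with -0.42 (adjusted p = 0.0109). Over its alternatives the adjusted p of Csad lay between 0.0109 and 0.183, and it also passed without background correction, with a larger offset, with the stricter filter, with the replicate block and with array weights. Cdo1, which oxidizes cysteine, had -0.42 (adjusted p = 0.099), and passed only with array weights (0.0483, within a range up to 0.265). With a larger offset Csad had -0.17 at its brighter probe and -0.26 at its dimmer probe, and Cdo1 had -0.13. Of the osmotic response genes, 1 of 5 fell and none rose, with a median of -0.06. That gene was Akr1b3, which makes sorbitol (log2 fold change -0.34, adjusted p = 0.0256). Its call was lost with median scaling (0.0685), without Ad-Cre replicate 1 (0.0528) or 2 (0.0812) or Ad-eGFP replicate 1 (0.083) or 3 (0.0999), within a range from 0.0034. Nfat5, the factor known to raise Slc6a6 under hypertonic stress, had -0.06 (adjusted p = 0.778).

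Of the genes of the ATF4 and amino acid response, 10 of 22 rose and none fell, with a median of 0.34. The largest changes were those of Ppp1r15a, an eIF2 phosphatase subunit, at 0.80 (adjusted p = 0.000481), Cebpb at 0.79 (adjusted p = 0.000901) and Ddit4, an inhibitor of mTORC1, at 0.63 (adjusted p = 0.00154). Atf4 had log2 fold changes of 0.45 (adjusted p = 0.0112) and 0.71 (adjusted p = 0.00469) at its probes. Asns, asparagine synthetase, had 0.33 (adjusted p = 0.0167), a call that was lost without Ad-Cre replicate 2 (0.0516) or Ad-eGFP replicate 2 (0.0686) or 3 (0.0651), within a range from 0.000894. The other tested Asns probes, at 0.44 and 0.48 (adjusted p = 0.00766 and 0.00811), stayed called under every alternative, although the latter had 0.27 with a larger offset. Trib3, a target of ATF4, was lower on all Ad-Cre arrays at its 3 probes (log2 fold changes of -0.23, -0.32 and -0.29), of which only probe 2370110 passed (adjusted p = 0.0252). That call was lost with median scaling (0.0758), without Ad-Cre replicate 1 (0.0518) or 2 (0.0809) or Ad-eGFP replicate 1 (0.0945), 2 (0.0605) or 3 (0.0888), within a range from 0.00844, and with a larger offset its value was -0.16. Of the cytosolic aminoacyl-tRNA synthetases, 7 of 20 rose and 2 fell, with a median of 0.16. Cars had 0.79 (adjusted p = 0.0118; 0.07 by an ordinary t-test, within a range from 0.00437), Tars 0.58 (adjusted p = 0.00842) and Farsa -0.77 (adjusted p = 0.00712). With a larger offset Cars had 0.17, Tars 0.23 and Farsa -0.18, each still called. Qars had -0.26 (adjusted p = 0.0301). The call of Qars was lost with median scaling (0.155), with the replicate block (0.0664), without Ad-Cre replicate 1 (0.0537) or 2 (0.0895), without Ad-eGFP replicate 1 (0.0932), 2 (0.0901) or 3 (0.111) and with the mean of its probes (0.0513), within a range from 0.0014 to 0.155.

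Of the genes of glutathione synthesis and NRF2, 6 of 9 rose and none fell, with a median of 0.35. They included Nqo1 at 1.28 (adjusted p = 0.00119), Txnrd1 at 0.89 (adjusted p = 0.00124) and Gss, glutathione synthetase, at 0.40 (adjusted p = 0.00896), while Nfe2l2, which encodes NRF2, had 0.06 (adjusted p = 0.711). With a larger offset Nqo1 had 0.68, Txnrd1 0.28 and Gss 0.19, each still called. Of the genes by which lysosomal amino acids are sensed for mTORC1, 1 of 17 rose and 2 fell, with a median of -0.01. Rheb, the GTPase that activates mTORC1, had 0.45 (adjusted p = 0.0121; 0.0527 without Ad-eGFP replicate 3, within a range from 0.000986), Rragb -0.85 (adjusted p = 0.00158) and Sesn1 -0.37 (adjusted p = 0.00986), but with the mean of its probes Sesn1 had -0.21 (adjusted p = 0.198), and with a larger offset Rragb had -0.52. Dimmer probes differed from the brightest for Mtor, at 1.48 (adjusted p = 0.000254, at most 0.00751 over the alternatives; 0.74 with a larger offset) against -0.01, and for Rragd, at -0.54 (adjusted p = 0.00744, at most 0.0344; -0.33 without background correction and -0.21 with a larger offset) against 0.02. Of the genes of glutamate and glutamine metabolism, 1 of 10 rose and 3 fell, with a median of -0.13. Gpt had -0.47 (adjusted p = 0.00889), Oat -0.45 (adjusted p = 0.00957) and Gpt2 -0.35 (adjusted p = 0.0181), and Glud1 had 0.27 (adjusted p = 0.0397). With a larger offset Gpt had -0.16, still called. The call of Gpt2 was lost with median scaling (0.0569), without Ad-Cre replicate 2 (0.0614) or Ad-eGFP replicate 1 (0.0621), 2 (0.0679) or 3 (0.0622), within a range from 0.00152. The call of Glud1 was lost with median scaling (0.0502), without the filter (0.064), with the replicate block (0.0605), without Ad-Cre replicate 1 (0.0639) or 2 (0.12), without Ad-eGFP replicate 1 (0.113), 2 (0.0791) or 3 (0.142) and with the mean of its probes (0.0622), within a range from 0.00458 to 0.142.

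Of the regulators of carriers at the membrane, 4 of 8 rose and 2 fell, with a median of 0.24. Sgk1, the kinase that keeps several carriers at the surface, had 1.08 (adjusted p = 0.00048), and the ubiquitin ligase Nedd4l, which removes them, had 0.54 (adjusted p = 0.0057). Arl6ip5, a binding partner of the glutamate carrier EAAC1, had 0.46 (adjusted p = 0.00786), Sgk3 had -0.38 (adjusted p = 0.0204) and Nedd4 had -0.35 (adjusted p = 0.0283). Lrrc8a, a subunit of the volume-regulated channel that lets taurine out, had 0.54 at its brightest probe (adjusted p = 0.017) and -0.45 at its other probe (adjusted p = 0.0408), and their mean was 0.04 (adjusted p = 0.801). The call at the other probe was lost without the filter (0.0698), by an ordinary t-test (0.122), with the replicate block (0.05001), without Ad-Cre replicate 2 (0.122) or 3 (0.0852) or Ad-eGFP replicate 1 (0.103) or 2 (0.124), within a range from 0.0224, and its log2 fold change was -0.25 without background correction and -0.15 with a larger offset. The call at its brightest probe was also lost by an ordinary t-test (0.071), without Ad-Cre replicate 2 (0.0603) or Ad-eGFP replicate 1 (0.0532), 2 (0.0532) or 3 (0.0612), within a range from 0.00148 to 0.801. Sgk3 was no longer called with the replicate block (0.0516), without Ad-Cre replicate 1 (0.0596) or Ad-eGFP replicate 1 (0.0707) or 3 (0.0594), within a range from 0.00436. Nedd4 was no longer called with median scaling (0.0517), by an ordinary t-test (0.0617), without Ad-Cre replicate 1 (0.0579) or 2 (0.0772) or Ad-eGFP replicate 1 (0.0866) or 2 (0.096), within a range from 0.0091. With a larger offset its log2 fold change was -0.23.

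**Figure D3:**
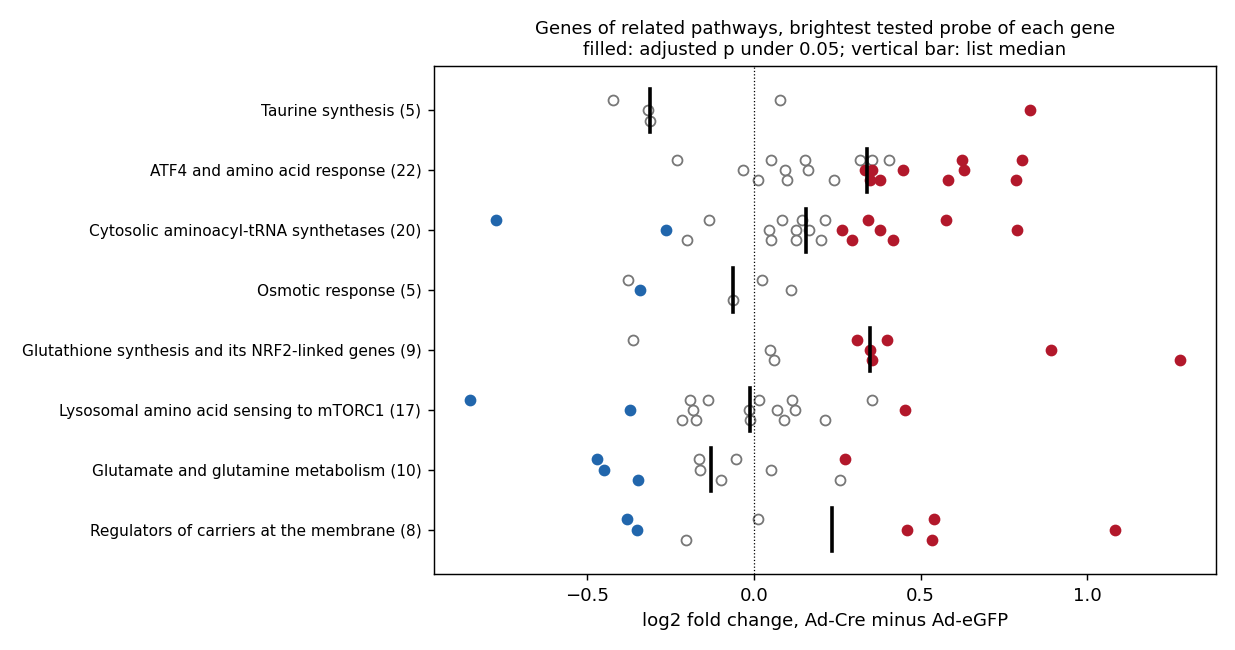
Log2 fold change (Ad-Cre minus Ad-eGFP, x axis) of each tested gene of 8 related gene lists, with the number tested in parentheses. Filled points have an adjusted p under 0.05, and black bars are the list medians, which run from -0.31 for taurine synthesis to 0.35 for glutathione synthesis and NRF2.

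Markers of the labelled cell type and of other testis cells were examined in the same way. All 15 Sertoli cell markers were tested, and 10 fell and none rose with Ad-Cre (median log2 fold change -0.57). Their summed linear signal was 128028, 125145 and 125046 on the Ad-Cre arrays and 196152, 189616 and 187204 on the Ad-eGFP arrays, with Clu and Aard adding most to the sum. Among the 10 that fell, Amh was detected on 1 Ad-Cre array and 3 Ad-eGFP arrays. Its log2 fold change of -1.16 ranged from -1.38 to -0.25 over the alternatives, and its call was lost by an ordinary t-test (adjusted p = 0.062). Of 6 peritubular myoid markers, 5 were tested and none passed; their summed signal, led by Acta2, was 61246, 59184 and 59415 with Ad-Cre and 58120, 56620 and 57918 with Ad-eGFP. Of 8 macrophage markers, 6 were tested, and Itgam and Ptprc were detected on no array. Csf1r, which was detected and therefore tested only because of the Ad-Cre arrays, was at least 1.54-fold higher with the offset of 16, but its fitted log2 value of 0.96 was 0.36 without background correction and 0.16 with a larger offset. Adgre1, Cd14 and Cd68 had 0.09, -0.04 and -0.24 without a call, whereas Lyz1 and Lyz2 had -0.32 and -0.35 (adjusted p = 0.0136 and 0.0276). The call of Lyz1 was lost with median scaling (0.0669) or without Ad-eGFP replicate 1 (0.0511), 2 (0.0551) or 3 (0.0605), within a range from 0.000412. That of Lyz2 was lost with median scaling (0.0525), by an ordinary t-test (0.0579) and with the replicate block (0.0526). It was also lost without Ad-Cre replicate 2 (0.0799) or Ad-eGFP replicate 1 (0.0828) or 3 (0.103), within a range from 0.00431. The summed macrophage signal, led by Lyz1, was 8819, 8464 and 8578 with Ad-Cre and 10737, 10488 and 10972 with Ad-eGFP. Of 10 germ cell markers, 5 were tested and 5 were detected on no array (Mael, Prm1, Stra8, Sycp3 and Zbtb16). Dnd1 had -0.47 (adjusted p = 0.00899), or -0.27 with a larger offset. Sycp1 had 0.45 (adjusted p = 0.0168), or 0.12 with a larger offset. The call of Sycp1 was lost by an ordinary t-test (0.0561) and without Ad-eGFP replicate 2 (0.063) or 3 (0.0686), within a range from 0.00885. Dazl had log2 fold changes of -0.03 and, at its dimmer probe, -0.56 (adjusted p = 0.863 and 0.00726). The latter was -0.27 without background correction and -0.16 with a larger offset. The summed germ cell signal, led by Dazl, was 3794, 3626 and 4238 with Ad-Cre and 3994, 4044 and 4028 with Ad-eGFP. Of 7 Leydig cell markers, Cyp11a1 and Star were tested without a call at their brightest probes, although the Cyp11a1 probes differed in direction (-0.28, adjusted p = 0.0923, and, at the dimmer probe, 0.53, adjusted p = 0.0263; for the latter 0.0972 by an ordinary t-test, with Ad-Cre replicate 1 or 2 left out 0.0742 or 0.0839, with Ad-eGFP replicate 1, 2 or 3 left out 0.0614, 0.0799 or 0.0832, its lowest being 0.00205, and a log2 fold change of 0.23 with a larger offset), with sums of 474, 407 and 421 and of 509, 492 and 509, and Cyp17a1, Hsd3b1, Hsd3b6, Insl3 and Lhcgr were detected on no array. Of 4 endothelial markers, Pecam1 and Cdh5 were tested without a call, with sums of 146, 134 and 133 and of 144, 139 and 159, and Kdr and Tek were detected on no array. What part the lower Sertoli cell markers, the lower Lyz1 and Lyz2 and the higher Csf1r have in the values of the carriers was not tested.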

How the data were processed

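RNA of 3 Ad-Cre and 3 Ad-eGFP samples had been hybridized to Illumina mouse BeadChips, 1 array each. The authors deposited the raw intensity of each probe, neither background-corrected nor normalized. The deposited detection p-value of each probe was computed against negative-control beads. The authors' comparison table (mean log2 values, fold changes and p-values) was left aside, as were 12 columns with the SD and number of beads in each sample. In R 4.3.3 with limma 3.58.1, intensities were corrected by normexp with inferred negative controls (offset 16), quantile normalized and log2 transformed. Probes detected (p under 0.05) on at least 3 of 6 arrays were tested with lmFit and eBayes, two-sided, with Benjamini-Hochberg adjustment over all 20855, and 24426 probes were left out. Symbols were matched to RefSeq (21545 of 31490, including all 51 of the carriers). The procedure was tried on simulated data.

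The carriers and gene lists were chosen with earlier results of these data known. Named in full were Slc6a6, Slc3a2 and its light chains, carriers with a called change of 1.5-fold or more and, of each related list, the 3 called genes with the largest change. Slc6a9, Slc38a2 and the other carriers given by array, Atf4, Asns, Csad, Cdo1, Nfat5, Nfe2l2, Qars, Glud1, Arl6ip5, Nedd4, Sgk3, Mtor, Rragd, Trib3 and the markers were named after their values were seen. The fit was repeated without background correction, with median scaling, with an offset 16 times larger, without the filter, and with a filter of detection p under 0.01 on each of the 6 arrays. Other alternatives were an ordinary t-test with pooled variance, a block for replicate number, array weights, the omission of each array, and averaging a gene over its tested probes.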

Additional observations from a re-analysis of the deposited data

How the results depend on the processing

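Samples of the treatments with the same replicate number had correlations of deviations of 0.157, 0.0554 and 0.0413, so pairing by number is only a hint. With the replicate number as a block, 8 carrier probes, 4 carrier genes and 4162 of all probes were called, beside 10, 6 and 4774 in the fit reported. All probes called came to 5760 without background correction, 4143 with median scaling, 5696 with a larger offset, 3825 without the filter, 4883 with the stricter filter, 3220 by an ordinary t-test and 7082 with array weights. Carrier probes called by an ordinary t-test came to 8. Leaving out each array in turn gave 6 to 11 carrier probes (5 to 10 higher and 1 lower), 3 to 7 carrier genes and 2480 to 5663 of all probes. Of 487 carrier values recomputed over 15 settings, 452 stayed on the same side of the threshold, 13 newly passed, 22 no longer passed and 0 reversed. Changes of called carriers were smaller by more than 1.5 times in 2 of 10 probes without background correction and in 4 of 10 with a larger offset.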

Other observations

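Probes filed under older symbols of the same carrier families fall outside the symbol rule and were looked up after values were seen. Of 29 such probes of 15 genes, 8 were tested, 2 were higher (Slc7a6os and Slc6a21) and 2 were lower (a pair of Slc38a9 probes). These counts stand beside 10.7% higher and 12.2% lower of all tested probes. Slc38a9, a lysosomal arginine sensor, gave 7.34, 7.48 and 7.39 with Ad-Cre and 8.11, 8.17 and 8.18 with Ad-eGFP at probe 2480349. The Ad-Cre arrays were all lower, with a log2 fold change of -0.75 (adjusted p = 0.000962; -0.36 with a larger offset). Probe 3780402 of Slc38a9 was detected on no Ad-Cre array, was tested only because of the Ad-eGFP arrays and was at least 1.38-fold lower, a call that was lost with a larger offset (log2 fold change -0.11, adjusted p = 0.0503), and probe 2100168 had -0.14 (adjusted p = 0.35). The Slc6a21 probe, detected on 3 Ad-Cre arrays and 1 Ad-eGFP array and so tested mainly because of the Ad-Cre arrays, had a fitted value of 0.66 (adjusted p = 0.0149), which did not pass by an ordinary t-test (0.0743) or without Ad-eGFP replicate 3 (0.0578), and which was 0.25 without background correction and 0.13 with a larger offset.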
